A study of Homo sapiens with 16 samples.

Results

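The read counts of 8 genes of the PI3K-AKT pathway were followed in U251 and U343 glioblastoma cells after transfection with miR-137: AKT1, AKT2, PIK3CA, PIK3CB, PIK3R1, TSC1, TSC2 and PDPK1. The genes were taken by symbol from the deposited count tables, where all 8 were found, among 20314 genes in the U251 tables and 20626 in the U343 tables. U251 and U343 are established human glioblastoma cell lines. Cells were reverse transfected with Lipofectamine RNAiMax and received either miR-137 mimics or control mimics at 25 nM, and they were collected 48 hours later. Every library therefore comes from transfected cells, and no untransfected cells were analysed here. RNASeq measured total RNA. RIPSeq measured the RNA that came down with antibodies to PABP, the protein that coats poly(A) tails. Each of the 4 experiments, RNASeq and RIPSeq in either cell line, had 2 control and 2 miR-137 libraries, which makes 16 libraries. The labels do not say whether the libraries of a group came from separate cultures, so p-values measure the spread between these libraries, which may be technical. Libraries of U251 were made with random-hexamer priming and those of U343 with the TotalScript kit, so cell line and kit cannot be told apart.

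PI3K is a lipid kinase that works downstream of receptor tyrosine kinases. Its catalytic subunits, p110-alpha from PIK3CA and p110-beta from PIK3CB, are held and steered by regulatory subunits such as p85-alpha from PIK3R1. The lipid that PI3K makes brings PDPK1 and the AKT kinases to the plasma membrane, where PDPK1 phosphorylates AKT. Active AKT then inhibits the complex of TSC1 and TSC2, which otherwise restrains the growth-promoting kinase complex mTORC1. This pathway is among those most often activated in glioblastoma.

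miR-137 is a small RNA of neural tissue that lowers mRNAs by pairing with them through its seed. The mature strand, which the mimics add to the cells, is shown with its seed, bases 2 to 8, in capitals. It was read from RefSeq annotation of GRCh38.p14, where it lies at chr1:98046091-98046113 on the minus strand, and it is 23 bases long.
hsa-miR-137-3p: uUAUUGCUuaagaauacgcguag
A perfect match to this seed in an mRNA reads AGCAAUA. Whether the transcripts of the 8 genes hold such a match was not analysed here.

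Libraries held 10156675 to 18224061 reads on genes in U251 RNASeq, 22359794 to 30731476 in U251 RIPSeq, 37952273 to 45134766 in U343 RNASeq and 37736206 to 45055184 in U343 RIPSeq. The glioma markers VIM, NES, CD44 and S100A6 had between 1703 and 384444 reads in every library, and GFAP had 37 to 537 reads in U251 and 127185 to 301017 in U343. After miR-137 transfection these 5 markers moved as well: GFAP (-3.18), NES (-1.25), VIM (-1.19) and CD44 (-0.79) were called lower and S100A6 (0.58) higher in U251 RNASeq. In U343, NES was called higher in both experiments, CD44 higher in RNASeq and GFAP lower in RIPSeq. In U251 RIPSeq edgeR called 0 of the 5, with log2 fold changes from -1.09 to 0.74. Of the markers of other cells, PTPRC, ALB and EPCAM had at most 13 reads. CDH5 had at most 24 reads in U251 and 286 to 1394 in U343. CDH5, a marker of endothelial cells, was at 30.9 and 20.5 CPM in the U343 RIPSeq controls against 10.1 and 7.30 CPM after miR-137 transfection (-1.56, edgeR adjusted p = 0.00071), and it changed by -0.96 in U343 RNASeq (adjusted p = 0.141). The part of these markers in the results was not tested. The libraries stood apart in 2 experiments. In U251 RIPSeq, the 2 controls differed by a median absolute log2 ratio of 0.64 per gene, where for the 2 libraries with miR-137 it was 0.06. In U343 RNASeq, the interferon-induced gene IFIT1 was at 9.73 CPM in miR-137 replicate 1 and at 1809 CPM in replicate 2, against 13.5 and 13.7 CPM in the controls. RSAD2 differed between these 2 libraries in the same way. Of IFIT1, MX1 and RSAD2, 3 were higher after miR-137 transfection in both U251 experiments and 2 in U343 RIPSeq, and their part in the results was not tested.

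Levels of a gene are given as CPM, that is read counts divided by library totals that were scaled with TMM factors within an experiment. They are not per length, so they are compared between libraries and not between genes. A change is the log2 fold change of miR-137 against control from edgeR's quasi-likelihood test, and a gene is called where its Benjamini-Hochberg adjusted p over all tested genes is under 0.05. All 8 genes passed the filter on low counts in all 4 experiments, with at least 263 reads in any library. In U251 RNASeq, 3 of the 8 were lower and 3 higher, where 29.0% of 13052 genes were called lower and 28.7% higher. With upper-quartile scaling, which moves the median gene there from 0.02 to 0.16, 3001 of all genes were lower and 4588 higher, in place of 3780 and 3749. The 8 genes kept the same count of calls under it. In U251 RIPSeq, 1 was lower and 0 higher, where 0.263% and 0.944% of 14087 genes were called. At an unadjusted p under 0.05, 3 of the 8 were lower and 2 higher there, and DESeq2 called 1 lower and 0 higher. In U343 RNASeq, 1 was lower and 0 higher, where 11.7% and 8.31% of 15088 genes were called. At an unadjusted p under 0.05, 2 were lower and 0 higher there, and DESeq2 called 1 lower and 0 higher. In U343 RIPSeq, 3 were lower and 1 higher, where 27.8% and 28.5% of 14866 genes were called. AKT2 was the gene called lower in each of the 4.

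Leaving out a library moved the number of calls over all genes, against which calls that single genes gained or lost are to be read. Without U251 RIPSeq control replicate 1, edgeR called 5052 of 14309 genes lower and 4689 higher, and without replicate 2, 5366 of 15682 lower and 6304 higher, in place of 37 and 133. Without a miR-137 library of this experiment 8 or 9 were called lower. Without U343 RNASeq miR-137 replicate 1, 3152 of 15509 genes were lower and 2994 higher, and without replicate 2, 2951 of 15281 lower and 2811 higher, in place of 1764 and 1254. Without either U343 RNASeq control edgeR called 0 genes, with 2776 and 2675 at an unadjusted p under 0.05. The joint fit of both assays of a line called 1336 lower and 1615 higher in U251 RNASeq, in place of 3780 and 3749.

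AKT2 encodes the AKT isoform best known for insulin-stimulated glucose uptake, and its gene span in the files, like all spans given here in hg18, is chr19:45428064-45483105 on the minus strand. The microRNA gene MIR641 overlaps AKT2 over 99 bases. In U251 RNASeq it had 2810 and 3344 reads in the controls and 445 and 527 after miR-137 transfection, which is 179.5 and 205 CPM against 40.2 and 46.8 CPM. In U251 RIPSeq, 6279 and 8743 reads stood against 956 and 1089, or 269 and 313 CPM against 36.6 and 40.1 CPM. In both U251 experiments every miR-137 library was far below both controls, and the groups did not overlap. In U343 RNASeq, 4738 and 3657 reads stood against 1225 and 1812, or 103 and 96.5 CPM against 29.1 and 42.7 CPM. U343 RIPSeq gave 4468 and 4618 reads against 1644 and 1757, or 99.0 and 114 CPM against 42.1 and 44.9 CPM. The groups did not overlap in U343 either. With 2 libraries against 2, an exact permutation test of such a separation cannot give a p below 0.333. The share of all genes whose groups did not overlap was not counted, here or for the genes below. In bulk samples, fewer cells that hold a transcript and less of it per cell cannot be told apart.

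The fall of AKT2 was 4.42-fold in U251 RNASeq (95% interval 3.58 to 5.45, edgeR adjusted p = 5.1e-08) and 7.60-fold in U251 RIPSeq (4.86 to 11.9, adjusted p = 0.027). It was 2.77-fold in U343 RNASeq (1.89 to 4.06, adjusted p = 0.017) and 2.44-fold in U343 RIPSeq (2.09 to 2.85, adjusted p = 3.1e-05). Ranked by log2 fold change from the lowest, AKT2 stood at position 111 of 13052 genes in U251 RNASeq, 21 of 14087 in U251 RIPSeq, 325 of 15088 in U343 RNASeq and 617 of 14866 in U343 RIPSeq. The call in U251 RIPSeq was lost without a filter on low counts (adjusted p = 0.065) and without miR-137 replicate 1 (0.16) or replicate 2 (0.114), while the log2 fold change was -2.82 and -2.96 without these libraries, against -2.93. That in U343 RNASeq was lost without control replicate 1 (adjusted p = 0.185) or replicate 2 (0.193), where no gene was called. The log2 fold change was -1.42 and -1.51 there. AKT2 was at 29.1 CPM in the U343 RNASeq miR-137 library in which IFIT1 was at the level of the controls, and its log2 fold change was -1.23 without that library and -1.78 without the other one, against -1.47 with both.

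In control libraries the level of AKT2 differed between experiments, while in miR-137 libraries the levels lay closer together. Group means, with SD over 2 libraries, were 291 ± 30.9 CPM in U251 RIPSeq controls, 192 ± 17.7 in U251 RNASeq controls, 106 ± 10.3 in U343 RIPSeq controls and 99.6 ± 4.29 in U343 RNASeq controls. The miR-137 groups followed at 43.5 ± 1.94 in U343 RIPSeq, 43.5 ± 4.68 in U251 RNASeq, 38.3 ± 2.45 in U251 RIPSeq and 35.9 ± 9.65 in U343 RNASeq. The U343 control groups overlapped each other, and so did neighboring miR-137 groups in this order, with the exception of U251 RNASeq and U251 RIPSeq. Scaling was done within each experiment, so this order across experiments is a description.

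**Figure D1:**
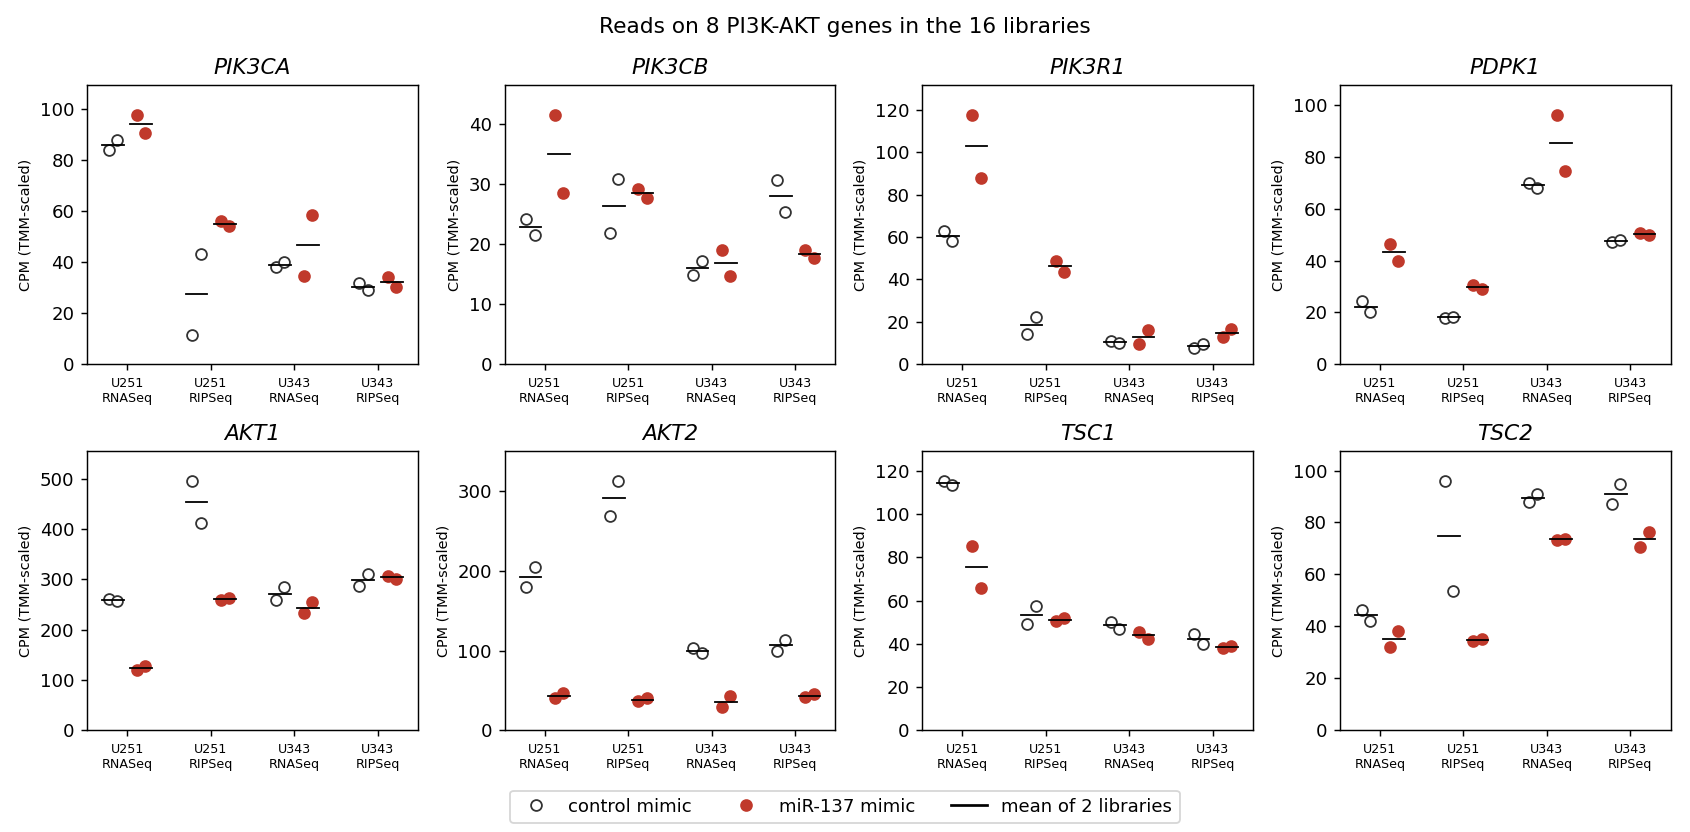
CPM (TMM-scaled, linear axis from 0) of each of the 8 genes in the 4 experiments, with open circles for control libraries, filled circles for miR-137 libraries and a bar at the mean of 2 libraries. AKT2 fell in all 4 experiments to between 29.1 and 46.8 CPM, while AKT1 in U343 stayed between 232 and 311 CPM in both groups.

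AKT1 encodes the isoform most widely expressed in tissues and linked to cell survival and growth (chr14:104306732-104333125, minus strand). It fell in U251 RNASeq, from 261 and 258 CPM to 120.3 and 128 CPM, a change of -1.06 (SE 0.13, edgeR adjusted p = 1.2e-05) with no overlap. In U251 RIPSeq, 496 and 412 CPM stood against 259 and 263 CPM, again with no overlap, and the change of -0.80 (SE 0.21) did not pass the threshold (adjusted p = 0.153). It passed without control replicate 1 (-0.66) or replicate 2 (-0.84), the libraries with the wide spread, in fits that called 5052 and 5366 genes lower. The joint fit also called AKT1 lower in U251 RIPSeq (-0.83, edgeR adjusted p = 0.023), where 1213 of 14210 genes were called lower. In U343 the picture was different. RNASeq gave 259 and 284 CPM against 232 and 256 CPM, and RIPSeq 286 and 311 against 307 and 301 CPM. Those changes were -0.15 (95% interval -0.44 to 0.13) and 0.03 (-0.19 to 0.25).

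Because AKT1 and AKT2 are counted in the same library, the share of AKT2 in their summed reads does not depend on how library totals are scaled. In U251 RNASeq it was 40.8% (95% Wilson interval 39.6 to 42.0) and 44.3% (43.1 to 45.4) in the controls, and 25.0% (23.1 to 27.1) and 26.8% (24.9 to 28.8) after miR-137 transfection. U251 RIPSeq gave 35.2% (34.5 to 35.9) and 43.2% (42.5 to 43.9) against 12.4% (11.7 to 13.1) and 13.2% (12.5 to 13.96). In this line the miR-137 libraries of RIPSeq had the lowest shares. U343 RNASeq gave 28.4% (27.7 to 29.1) and 25.4% (24.7 to 26.1) against 11.1% (10.5 to 11.7) and 14.3% (13.7 to 14.9), and U343 RIPSeq 25.7% (25.1 to 26.4) and 26.7% (26.1 to 27.4) against 12.1% (11.5 to 12.6) and 12.95% (12.4 to 13.5). These intervals cover counting error only and treat reads as independent. PCR copies of a molecule were not marked and could be counted more than once, so the intervals may be too narrow.

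The mean share fell by 16.6 percentage points in U251 RNASeq, 26.4 in U251 RIPSeq, 14.2 in U343 RNASeq and 13.7 in U343 RIPSeq, and the groups did not overlap in any of the 4. With 2 libraries against 2, an exact permutation test cannot give a p below 0.333, so no test of the share was made. Reads of AKT2 for each read of AKT1 fell 2.12-fold, 4.38-fold, 2.54-fold and 2.49-fold in the same order. The ratio shows an unequal change of AKT1 and AKT2 and does not tell whether either was unchanged. The share was looked at after the counts had been seen.

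**Figure D2:**
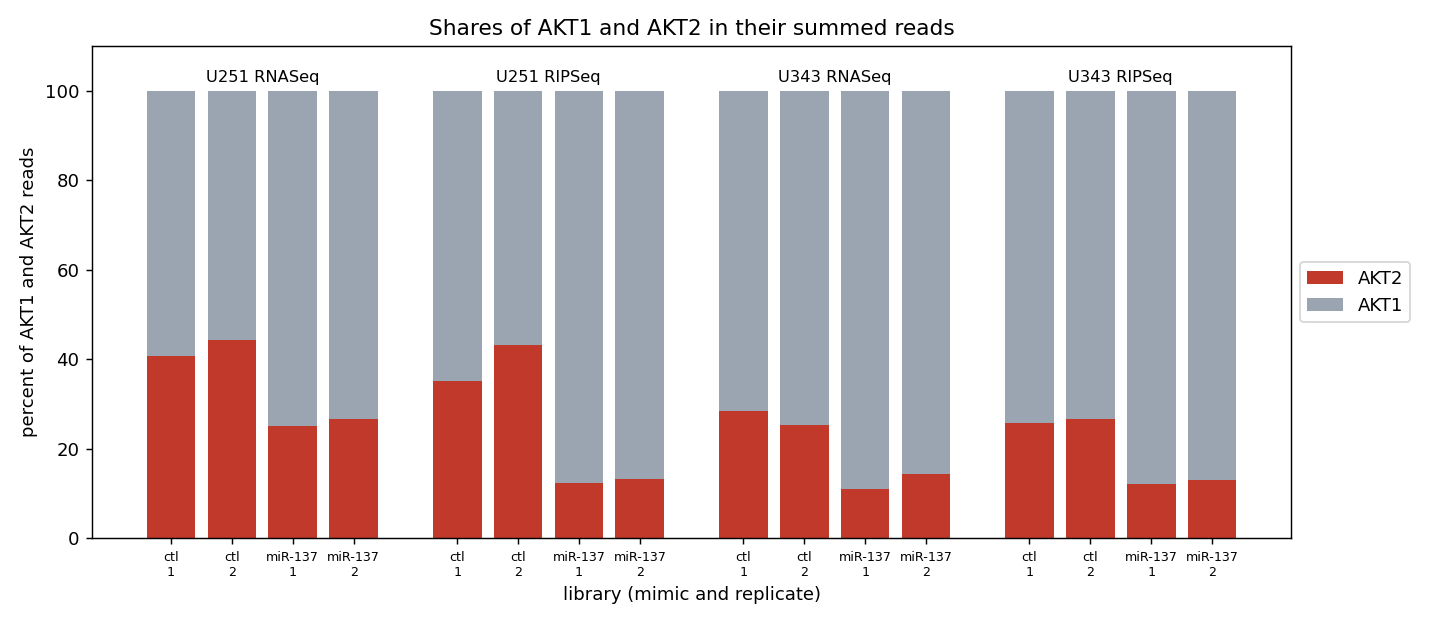
Percent of the summed reads of AKT1 and AKT2 that fell on either gene, as a stacked bar for every library, control and miR-137, in the 4 experiments. AKT2 took 25.4% to 44.3% in the control libraries and 11.1% to 26.8% in the miR-137 libraries, and within each experiment every miR-137 bar for AKT2 was shorter than both control bars.

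The PI3K subunits moved differently from AKT2. PIK3CA (chr3:180349005-180435191, plus strand), the gene of p110-alpha that is often mutated in cancer, was not called in any of the 4 experiments. Its level was 83.9 and 88.0 CPM in the U251 RNASeq controls against 97.6 and 90.7 CPM, and 31.9 and 28.9 in the U343 RIPSeq controls against 34.2 and 30.1 CPM. In U343 RNASeq it was 38.0 and 40.0 against 34.6 and 58.6 CPM, the last value being from the miR-137 library with high IFIT1. The change in U343 RNASeq was 0.58 without miR-137 replicate 1 (edgeR adjusted p = 0.0035, among 2994 genes called higher) and -0.18 without replicate 2 (0.201). In U251 RIPSeq the controls were at 11.3 and 43.4 CPM, a gap wider than that to the miR-137 libraries at 56.1 and 53.9 CPM. The change there was 1.01 with a 95% interval from -0.73 to 2.75, and it was 0.34 without control replicate 1 and 2.37 without replicate 2.

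PIK3CB (chr3:139856921-139960875, minus strand) rose in U251 RNASeq, from 24.2 and 21.5 CPM to 41.5 and 28.5 CPM, by 0.62 on the log2 scale (SE 0.18, edgeR adjusted p = 0.0085). That call was lost without miR-137 replicate 1, at 0.33 (adjusted p = 0.131), and without a filter on low counts (adjusted p = 0.088) or in the joint fit (0.112). In U343 RIPSeq it fell by 0.61 on the log2 scale, from 30.6 and 25.4 CPM to 19.1 and 17.7 CPM (SE 0.12, adjusted p = 0.003). The calls of PIK3CB thus had opposite directions in these 2 experiments. U251 RIPSeq gave 21.9 and 30.8 against 29.2 and 27.7 CPM, and U343 RNASeq 14.9 and 17.2 against 18.9 and 14.6 CPM, with overlap in both.

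PIK3R1 (chr5:67558218-67633405, plus strand), whose p85-alpha protein both stabilizes and restrains the catalytic subunit, was higher after miR-137 transfection in the mean of each experiment. U251 RNASeq went from 62.9 and 58.2 CPM to 118 and 88.0 CPM, a rise of 0.76 (SE 0.15, edgeR adjusted p = 0.00067). U343 RIPSeq went from 7.76 and 9.47 CPM to 12.7 and 16.7 CPM, a rise of 0.77 (SE 0.16, adjusted p = 0.005). These 2 changes passed the threshold and their groups did not overlap, and the call in U251 RNASeq was lost in the joint fit (0.78, edgeR adjusted p = 0.063). In U251 RIPSeq, 14.5 and 22.3 CPM stood against 48.8 and 43.5 CPM, a change of 1.32 (SE 0.32) that did not pass (adjusted p = 0.136) but passed without either control, in fits that called 4689 and 6304 genes higher. The joint fit also called PIK3R1 higher in U251 RIPSeq (1.30, edgeR adjusted p = 0.014), where 1142 of 14210 genes were called higher. U343 RNASeq gave 10.8 and 10.2 against 9.69 and 16.0 CPM. The library with IFIT1 at the level of the controls was the lowest of these 4. Its change was 0.60 without that library (edgeR adjusted p = 0.011) and -0.12 without the other one (0.52).

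PDPK1, the kinase that phosphorylates AKT in its activation loop (chr16:2527971-2593190, plus strand), was not called lower in any experiment. It rose in U251 RNASeq, from 24.5 and 20.0 CPM to 46.5 and 39.9 CPM, by 0.96 (SE 0.15, edgeR adjusted p = 0.00014). U251 RIPSeq gave 17.9 and 18.4 against 30.6 and 29.1 CPM, which do not overlap, with a change of 0.72 that did not pass (adjusted p = 0.205) but passed without either control, in the fits with 4689 and 6304 genes called higher. The joint fit also called PDPK1 higher in U251 RIPSeq (0.69, edgeR adjusted p = 0.049), where 1142 of 14210 genes were called higher. In U343 RNASeq the levels were 69.9 and 68.2 against 96.3 and 74.8 CPM. In U343 RIPSeq they were 47.1 and 47.9 against 50.8 and 49.9 CPM. Neither difference passed the threshold, with changes of 0.31 in RNASeq (edgeR adjusted p = 0.207) and 0.08 in RIPSeq (0.389). No control overlapped a miR-137 library, but the share of all genes so separated was not counted. The RNASeq change was 0.11 without miR-137 replicate 1 and 0.48 without replicate 2. PDPK1 has a near-identical pseudogene, PDPK2P, and how reads that map to both were counted is not given in the sources used here, so its counts are uncertain.

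TSC1 and TSC2 form the brake between AKT and mTORC1. TSC1 (chr9:134756556-134809841, minus strand) fell in U251 RNASeq from 115 and 113 CPM to 85.3 and 66.0 CPM, by 0.60 on the log2 scale (SE 0.14, edgeR adjusted p = 0.0026), a call lost in the joint fit (-0.58, adjusted p = 0.078). Elsewhere it was not called: 49.1 and 57.5 against 50.4 and 52.0 CPM in U251 RIPSeq, 50.3 and 46.8 against 45.6 and 42.4 CPM in U343 RNASeq, and 44.3 and 40.1 against 38.0 and 39.2 CPM in U343 RIPSeq. The interval of the change reached from -0.40 to 0.12 in U343 RNASeq and from -0.34 to 0.08 in U343 RIPSeq.

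TSC2 (chr16:2037991-2078714, plus strand, meeting PKD1 over 3 bases) had a lower mean after miR-137 transfection in each experiment, and the difference passed the threshold in 1 of 4. In U343 RIPSeq it fell from 87.1 and 94.7 CPM to 70.6 and 76.4 CPM, by 0.31 on the log2 scale (SE 0.09, edgeR adjusted p = 0.019), and the call was lost without control replicate 2 (adjusted p = 0.103) or miR-137 replicate 1 (0.092). U343 RNASeq gave 88.0 and 90.8 against 73.3 and 73.7 CPM (-0.28, adjusted p = 0.085). U251 RNASeq gave 46.4 and 42.1 against 31.9 and 38.3 CPM (-0.33, adjusted p = 0.058), and U251 RIPSeq 96.0 and 53.7 against 34.3 and 35.3 CPM (-1.10, adjusted p = 0.205). The groups did not overlap in any of these, and the share of all genes without overlap was not counted. The joint fit called TSC2 lower in U251 RIPSeq (-1.14, edgeR adjusted p = 0.036), where 1213 of 14210 genes were called lower. In U343 RNASeq it did so as well (-0.30, edgeR adjusted p = 0.026), where 2768 of 15413 genes were called lower. TSC2 also passed without either control in U251 RIPSeq and without either miR-137 library in U343 RNASeq (edgeR adjusted p = 0.041 and 0.044), where 5052 and 5366, and 3152 and 2951, of all genes were called lower.

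**Figure D3:**
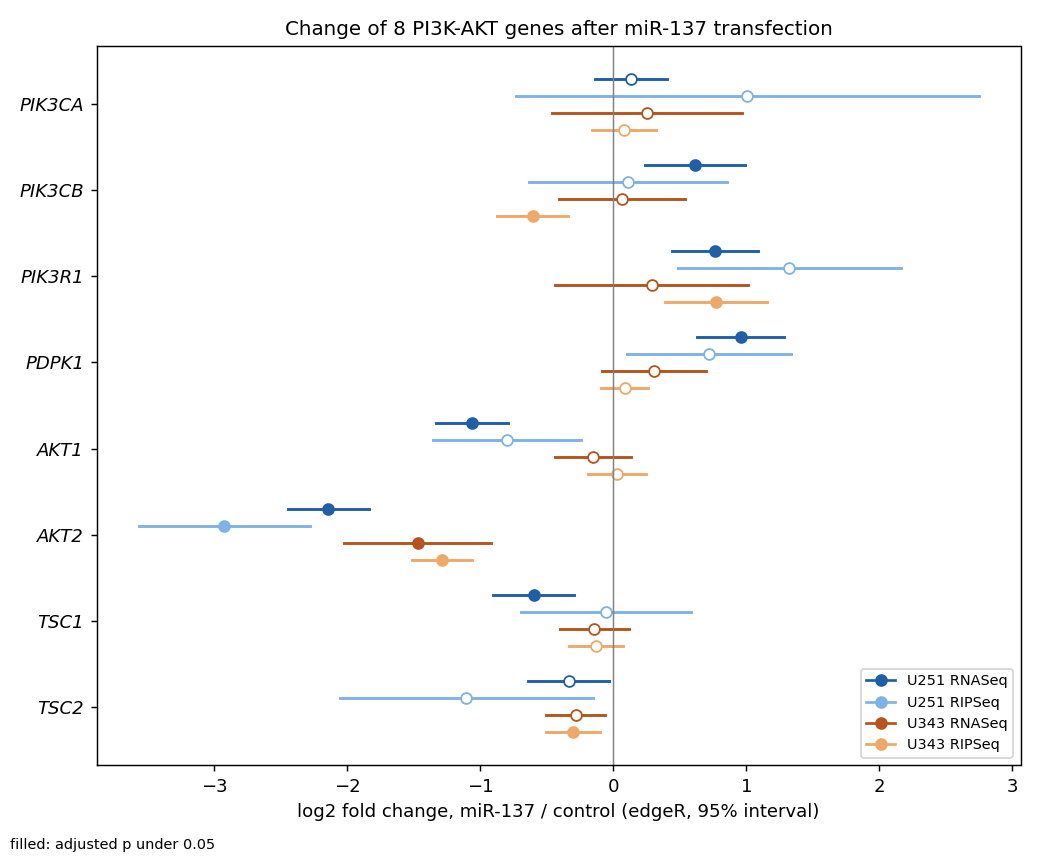
Log2 fold change of miR-137 against control for the 8 genes (edgeR, point and 95% interval), by experiment, with filled points where the adjusted p was under 0.05. The 4 points of AKT2 lie between -2.93 and -1.29 and are all filled, while PIK3CA has no filled point and its U251 RIPSeq interval runs from -0.73 to 2.75.

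The rule stated in the study's methods calls a gene lower when the odds ratio exceeds 2, with an adjusted p below 0.001, in all 4 Fisher's exact tests that set 1 control against 1 miR-137 library. It compares the reads of libraries and does not use the spread between replicates. By this rule AKT2 was lower in all 4 experiments and the other 7 genes were lower in none. The share of all genes called lower was 2.21% in U251 RNASeq, 1.49% in U251 RIPSeq, 2.88% in U343 RNASeq and 3.4% in U343 RIPSeq. The odds ratio of AKT2 ranged over the pairs from 3.21 to 4.23 in U251 RNASeq, 6.89 to 7.53 in U251 RIPSeq, 2.33 to 3.57 in U343 RNASeq and 2.13 to 2.78 in U343 RIPSeq. The pair closest to the threshold was therefore in U343 RIPSeq. By the mirrored rule, PIK3R1 rose in U251 RIPSeq, where 3.47% of genes did, and none of the 8 rose in the other experiments, where the shares were 6.14% in U251 RNASeq, 1.51% in U343 RNASeq and 4.83% in U343 RIPSeq. With library totals scaled by TMM factors that call of PIK3R1 was lost. AKT1 in U251 RNASeq had odds ratios of 1.63 to 1.86 with unscaled totals, under the threshold in every pair. With TMM-scaled totals 2 of the 8 genes were lower in U251 RNASeq, AKT1 beside AKT2. Over all genes 795 were then lower there, in place of 448.

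Few genes were called lower in all 4 experiments, a number that cannot exceed the 37 called lower in U251 RIPSeq. With edgeR they were 22 of the 12192 genes tested in each (0.18%), AKT2 among them, while 2450 had a negative log2 fold change in all 4. With the rule they were 44 of the 20314 genes in both tables (0.217%), again with AKT2. The genes whose 4 log2 fold changes were closest to those of AKT2, by Euclidean distance over the experiments, were E2F1 (distance 0.38), RNF157 (0.46) and TMEM218 (0.61). E2F1, a transcription factor of S-phase entry, changed by -2.23, -2.60, -1.32 and -1.21 in U251 RNASeq, U251 RIPSeq, U343 RNASeq and U343 RIPSeq, and passed the threshold in all but U251 RIPSeq (edgeR adjusted p = 0.073). RNF157, a ubiquitin ligase, changed by -2.19, -3.12, -1.25 and -1.64, and TMEM218, a membrane protein of cilia, by -2.26, -2.87, -1.39 and -1.88, and both passed in all 4.

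The design also allows PABP-bound and total RNA to be compared without miR-137, over the control libraries in a fit of the 8 libraries of a line. In U251, PIK3CA, PIK3R1 and TSC1 were lower in PABP-bound RNA and AKT1, AKT2 and TSC2 higher, that is 3 lower and 3 higher, where 18.2% and 22.3% of 14210 genes were called. The log2 ratios of PABP-bound to total RNA were -1.51 for PIK3CA (edgeR adjusted p = 0.043), -1.57 for PIK3R1 (0.0036) and -0.95 for TSC1 (0.0091). They were 0.96 for AKT1 (edgeR adjusted p = 0.0067), 0.75 for AKT2 (0.019) and 0.92 for TSC2 (0.039). These comparisons use the 2 U251 RIPSeq controls that differ from each other: without a RIPSeq control the ratio of PIK3CA moved between -0.88 and -2.86 and that of TSC2 between 0.38 and 1.18. With the exception of PIK3R1, each of the 6 lost its call without RNASeq control replicate 1 and also without replicate 2, where 759 and 969 of all genes were called lower and 943 and 883 higher, in place of 2590 and 3165. PIK3CB (0.35) and PDPK1 (-0.14) were not called in U251, PIK3CB passing without RIPSeq control replicate 1 (0.53, edgeR adjusted p = 0.028). In U343, PDPK1 was lower (-0.42, adjusted p = 0.03) and PIK3CB higher (0.93, adjusted p = 0.0049), where 15.7% and 18.2% of 15413 genes were called. The call of PDPK1 was lost without any 1 of the 4 control libraries, where 1195 to 1340 of all genes were called lower in place of 2424, and that of PIK3CB without RNASeq control replicate 1 (adjusted p = 0.055). AKT2 was at a ratio of 0.22 in U343 (95% interval -0.19 to 0.63).

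Whether miR-137 lowered AKT2 more in PABP-bound than in total RNA was tested as an interaction of transfection with assay. In U251 the log2 fold change of AKT2 was 0.83 lower in RIPSeq (a difference of -0.83, 95% interval -1.47 to -0.19, unadjusted p = 0.018 in edgeR), which did not pass after adjustment (adjusted p = 0.19). It passed without RIPSeq control replicate 1 (-0.83, edgeR adjusted p = 0.009) or replicate 2 (-0.64, 0.009), in fits that called 1224 and 3922 of all genes in this direction, against 4 with all libraries. In U343 the difference was 0.18 (-0.40 to 0.77). None of the 8 genes passed this edgeR test in either line, where 0.134% of genes did in U251 and 0.00649% in U343. At an unadjusted p under 0.05 it was 1 gene in each line, AKT2 in U251 and PIK3CB in U343, where the difference was -0.67 (-1.20 to -0.14), and DESeq2 called 0 in both.

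In the control RNASeq libraries the lines differed in the level of most of these genes, as did most genes tested. AKT2 (-0.89), PIK3CA (-1.08), PIK3R1 (-2.46) and TSC1 (-1.18) were lower in U343 and PDPK1 (1.69) and TSC2 (1.07) higher, that is 4 lower and 2 higher, where 35.9% and 40.9% of 15550 genes were called. PIK3R1 was thus 5.52-fold lower in U343 (95% interval 3.77 to 8.08) and PDPK1 3.23-fold higher. AKT1 differed by 0.13 (-0.14 to 0.39) and PIK3CB by -0.45 (-0.93 to 0.03), and neither passed. Each of the 6 calls held in all 7 alternatives run. The difference of line cannot be told apart from that of the library kit.

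**Figure D4:**
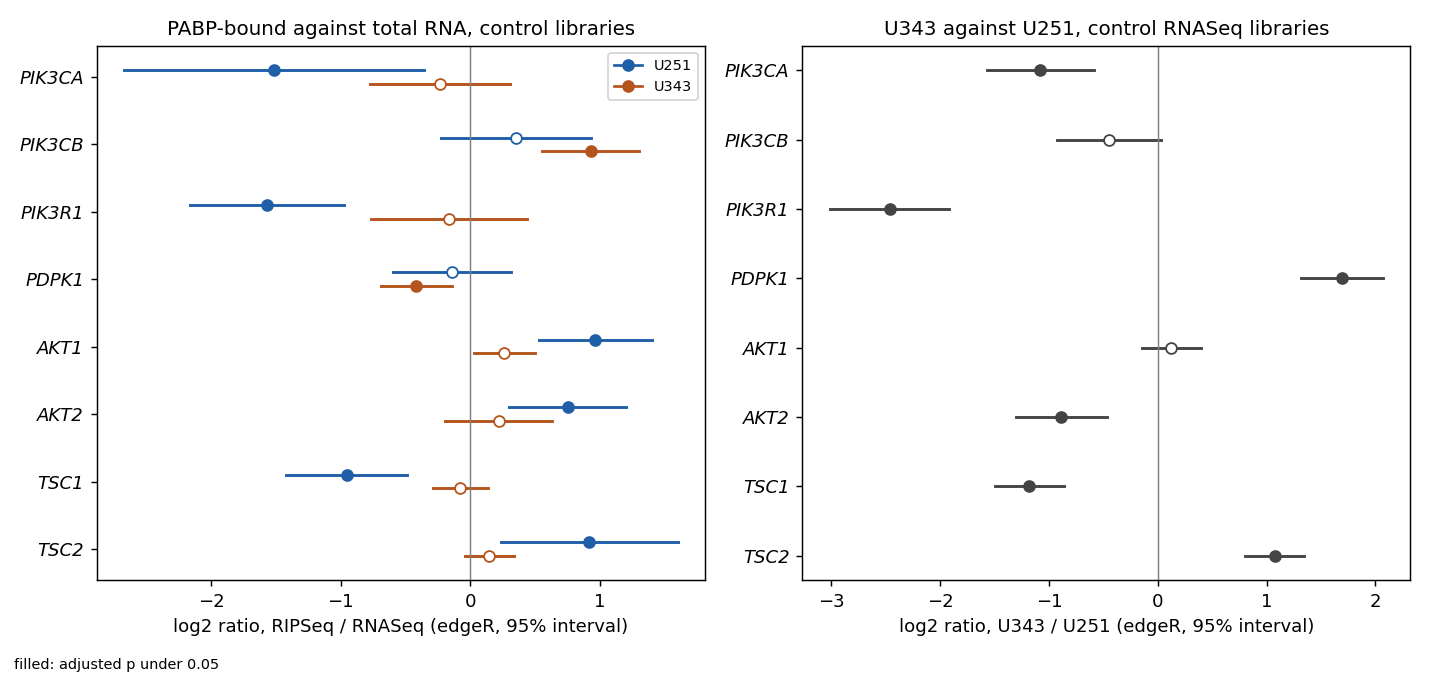
Left, log2 ratio of PABP-bound to total RNA in the control libraries of each line, and right, log2 ratio of U343 to U251 in the control RNASeq libraries (edgeR, point and 95% interval, filled where the adjusted p was under 0.05). PIK3R1 lies at -1.57 on the left in U251 and at -2.46 on the right, and AKT2 at 0.75 and 0.22 on the left and at -0.89 on the right.

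The response of AKT1 and AKT2 to miR-137 was also compared between the lines, as an interaction of transfection with cell line. In RNASeq the log2 fold change of AKT1 was higher in U343 by 0.90 (95% interval 0.52 to 1.28, edgeR adjusted p = 0.0068), and it was the only one of the 8 genes to pass, where 12.5% of 15550 genes were called in this direction and 12.7% in the other. This call of AKT1 held in all 12 alternatives run. That of AKT2 was higher by 0.66 (0.07 to 1.26, adjusted p = 0.095) and passed with DESeq2 (adjusted p = 0.033) and without U343 miR-137 replicate 1 (0.92, edgeR adjusted p = 0.0021). In RIPSeq the change of AKT2 was smaller in U343 by 1.69 (1.15 to 2.23, adjusted p = 0.018), again the only one of the 8 to pass, where 2.06% of 15959 genes were called in this direction and 1.22% in the other. It was lost with a replicate block (adjusted p = 0.064) and without any 1 of the 2 U251 miR-137, 2 U343 control and 2 U343 miR-137 RIPSeq libraries (adjusted p from 0.128 to 0.267), where 1 or 2 of all genes were called higher in place of 329. AKT1 differed by 0.88 in RIPSeq (adjusted p = 0.082) and passed with DESeq2 (0.003) and without either U251 control, where 3068 and 4479 genes were called higher.

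Outside the 8 genes, 44 genes of the pathway were described as 5 lists by role: other PI3K subunits and adaptors, lipid phosphatases, regulators of AKT, AKT substrates, and the TSC partner with the mTORC1 branch. In U251 RNASeq, 16 of the 40 tested were lower and 8 higher, where 29.0% and 28.7% of all genes were called. With upper-quartile scaling it was 11 lower and 10 higher. In U251 RIPSeq edgeR called 0 of 43, while 8 were lower and 3 higher at an unadjusted p under 0.05 and DESeq2 called 2 lower and 2 higher. In U343 RNASeq 7 of 44 were lower and 2 higher, where 11.7% and 8.31% of all genes were. In U343 RIPSeq 18 of 42 were lower and 8 higher, where 27.8% and 28.5% of all genes were. The shares of the lists were 40.0% and 20.0%, 15.9% and 4.55%, and 42.9% and 19.0% in U251 RNASeq, U343 RNASeq and U343 RIPSeq. The median log2 fold changes over the lists were -0.28 in U251 RNASeq, -0.19 in U251 RIPSeq, -0.13 in U343 RNASeq and -0.15 in U343 RIPSeq. Over all genes tested the medians were 0.02, -0.02, 0.02 and 0.00 in the same order. With 0 of 43 called in U251 RIPSeq, no gene of the lists could be called lower in all 4 experiments, as AKT2 was. The call of AKT2 there (edgeR adjusted p = 0.027) was itself lost in several alternatives, as given above. MAPKAP1 had a change of -1.65 there (edgeR adjusted p = 0.074). It passed with DESeq2 (0.0086), the replicate block (edgeR adjusted p = 0.012) and the joint fit (0.0023). The share of all genes called lower in 3 was not counted, and 969 of 12192 genes were lower in both RNASeq experiments. Of the lists, EIF4EBP2, MAPKAP1, MTOR, PHLPP2 and RHEB were called lower in 3. Of these calls, that of PHLPP2 in U251 RNASeq (-0.43, edgeR adjusted p = 0.019) was lost with upper-quartile scaling (0.093), without a filter (0.057), in the joint fit (0.321) and without control replicate 1 (0.124) or miR-137 replicate 2 (0.11).

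Among PI3K subunits and adaptors, 2 were lower and 2 higher of 8 tested in U251 RNASeq, 0 and 2 of 9 in U343 RNASeq, and 3 and 3 of 9 in U343 RIPSeq. The 25.0% each way in U251 RNASeq lay near the 29.0% and 28.7% of all genes. Of all genes, 11.7% were lower and 8.31% higher in U343 RNASeq, and 27.8% and 28.5% in U343 RIPSeq. PIK3AP1, an adaptor that recruits PI3K in immune cells, rose in U251 RNASeq from 3.58 and 5.75 CPM to 20.9 and 16.6 CPM (log2 fold change 2.00, edgeR adjusted p = 6.1e-06). In U343 RIPSeq it rose from 1.93 and 1.99 CPM to 47.7 and 55.3 CPM (4.71, adjusted p = 3.8e-07). In U343 RNASeq it was at 1.85 CPM in the miR-137 library with IFIT1 at the level of the controls and at 51.0 CPM in the other, against 3.29 and 2.93 CPM in the controls, so its level moved with that of IFIT1. The change there was 4.02 without replicate 1 (edgeR adjusted p = 1.2e-05) and -0.75 without replicate 2 (0.049). IRS1, which links the insulin receptor to PI3K, went the opposite way in the lines. It fell in U251 RNASeq from 220.2 and 211 CPM to 126 and 111 CPM (-0.86, edgeR adjusted p = 8.6e-05) and rose in U343 RNASeq from 43.3 and 47.5 CPM to 78.1 and 82.5 CPM (0.82, adjusted p = 0.013). The call in U343 RNASeq was lost without control replicate 1 (adjusted p = 0.185) or replicate 2 (0.181), at 0.76 and 0.89.

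Of the lipid phosphatases, which remove PI3K products, 2 were lower and 1 higher of 4 tested in U251 RNASeq, where 29.0% and 28.7% of all genes were. In U343 RNASeq edgeR called 0 of 5, and 0 were lower and 2 higher of 5 in U343 RIPSeq, beside 11.7% and 8.31%, and 27.8% and 28.5%, of all genes. INPP4B, which acts on the 4-phosphate of a PI3K lipid product, fell in U251 RNASeq from 47.9 and 45.0 CPM to 9.84 and 7.10 CPM (-2.45, edgeR adjusted p = 9.9e-08). Its reads in U343 were few, 67 to 198 in a library, and its change of -1.08 in U343 RNASeq did not pass in edgeR (adjusted p = 0.096). It passed there with DESeq2 (0.028), the replicate block (edgeR adjusted p = 0.045), the joint fit (0.025) and without either miR-137 library, at -0.72 and -1.55. In U343 RIPSeq INPP4B was not called, and its change lay between -0.24 and -0.018 with a library left out. In U251 RIPSeq it changed by -1.71, which did not pass in edgeR (adjusted p = 0.12). It passed there with DESeq2 (0.016), the replicate block (edgeR adjusted p = 0.038) and the joint fit (0.0083). By the rule of the methods INPP4B was lower in U251 RNASeq and U251 RIPSeq. INPP4A, the related phosphatase, rose in U343 RIPSeq from 39.1 and 37.6 CPM to 58.1 and 61.5 CPM (0.64, edgeR adjusted p = 0.0004).

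Of the AKT regulators, 4 were lower and 1 higher of 8 tested in U251 RNASeq, 3 and 0 of 10 in U343 RNASeq, and 5 and 1 of 8 in U343 RIPSeq, where 29.0% and 28.7%, 11.7% and 8.31%, and 27.8% and 28.5% of all genes were. MAPKAP1 encodes SIN1, a subunit of the mTORC2 complex that phosphorylates AKT. It fell in U251 RNASeq from 389 and 411 CPM to 116 and 108 CPM (-1.83, edgeR adjusted p = 1.4e-07). In U343 RIPSeq it fell from 160.5 and 162 CPM to 68.3 and 64.9 CPM (-1.28, adjusted p = 1.6e-05), and in U343 RNASeq by 0.79 on the log2 scale (adjusted p = 0.039). In U251 RIPSeq it was at 295 and 410.4 CPM against 110.2 and 114 CPM, a change of -1.65 that did not pass in edgeR (adjusted p = 0.074) and passed in DESeq2 (0.0086). By the rule of the methods MAPKAP1 was lower in U251 RNASeq, U251 RIPSeq and U343 RIPSeq. PHLPP2, a phosphatase that inactivates AKT, fell in U343 RNASeq from 62.8 and 55.7 CPM to 29.1 and 33.7 CPM (-0.92, adjusted p = 0.016). The calls of MAPKAP1 and PHLPP2 in U343 RNASeq were lost without either control library.

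Of the AKT substrates, 2 were lower and 2 higher of 10 in U251 RNASeq and 3 lower and 1 higher of 10 in U343 RIPSeq, beside 29.0% and 28.7%, and 27.8% and 28.5%, of all genes. In U343 RNASeq edgeR called 0 of 10, where 11.7% of all genes were lower and 8.31% higher. GSK3B, a kinase that AKT inhibits, fell in U251 RNASeq from 135 and 129 CPM to 91.6 and 79.5 CPM (-0.63, edgeR adjusted p = 0.001), a call lost in the joint fit (-0.61, adjusted p = 0.146). TBC1D4, which AKT inhibits to bring glucose transporters to the cell surface, fell in U343 RIPSeq from 52.1 and 45.5 CPM to 28.3 and 26.9 CPM (-0.82, adjusted p = 0.00028). In U343 RNASeq it changed by -0.94, which did not pass in edgeR (adjusted p = 0.073) and passed with DESeq2 (0.003), the replicate block (edgeR adjusted p = 0.023), the joint fit (0.016) and without either miR-137 library, at -0.66 and -1.30.

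In the list of the TSC partner and the mTORC1 branch, 6 were lower and 2 higher of 10 in U251 RNASeq, 4 and 0 of 10 in U343 RNASeq, and 7 and 1 of 10 in U343 RIPSeq, beside 29.0% and 28.7%, 11.7% and 8.31%, and 27.8% and 28.5% of all genes. EIF4EBP2, a repressor of cap-dependent translation that mTORC1 switches off, fell from 187 and 212 CPM to 62.9 and 49.6 CPM in U251 RNASeq (-1.83, edgeR adjusted p = 3.4e-07). It fell from 68.6 and 69.6 CPM to 35.5 and 30.9 CPM in U343 RNASeq (-1.06, adjusted p = 0.0098), a call lost without either control library. In U343 RIPSeq it fell from 76.9 and 84.4 CPM to 30.7 and 32.2 CPM (-1.36, adjusted p = 1.5e-05). RHEB, the small GTPase that activates mTORC1, fell by 0.45, 0.71 and 0.71 on the log2 scale in U251 RNASeq, U343 RNASeq and U343 RIPSeq (edgeR adjusted p = 0.0092, 0.018 and 0.00063). Its call in U343 RNASeq was lost without either control library, where no gene was called. Other alternatives are not given here for RHEB. The members that fell thus include both EIF4EBP2, a repressor of translation, and RHEB, an activator of mTORC1.

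**Figure D5:**
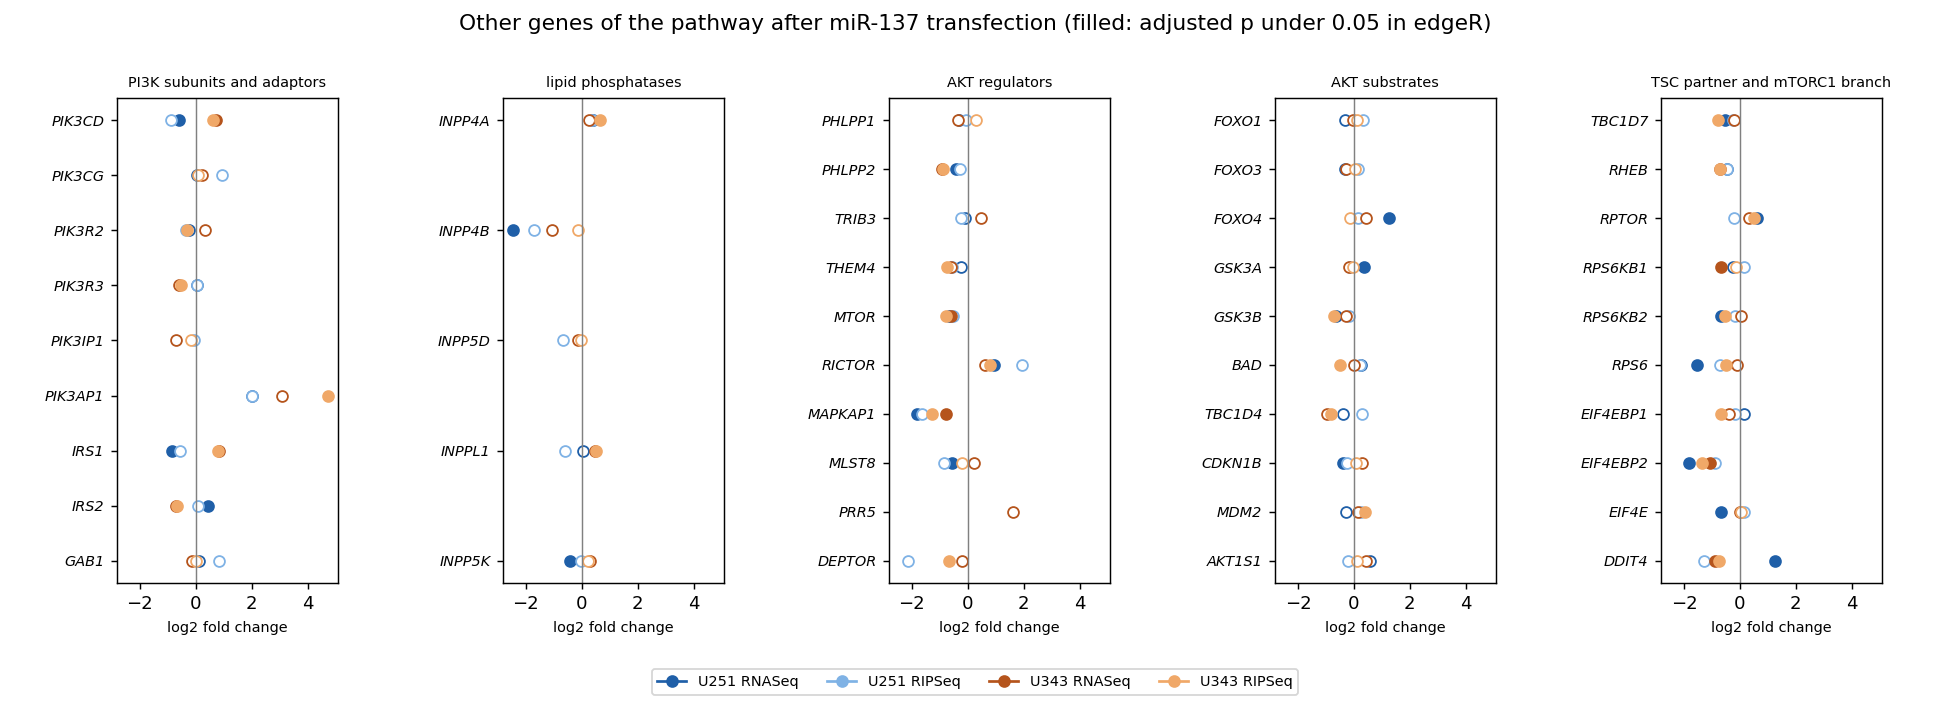
Log2 fold change of miR-137 against control for 44 other genes of the pathway, 1 panel per list, by experiment and filled where the edgeR adjusted p was under 0.05. MAPKAP1 and EIF4EBP2 lie left of 0 in all 4 experiments, and PIK3AP1 reaches 4.71 in U343 RIPSeq. Points at nearly equal values overlap.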

How the data were processed

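The deposited files hold read counts per gene, not normalized, which the authors made by mapping reads with RMAP to hg18 and counting them on 1 merged transcript for each RefSeq gene. Program versions and the handling of reads that map more than once are not given in the sources used here. In the U251 tables SLC35E2 has 2 lines, and the first was used. Samples were grouped by their titles, with 2 libraries in each of 8 groups. Genes were filtered with filterByExpr, scaled with TMM and tested within each experiment with edgeR 4.0.16 (R 4.3.3), whose quasi-likelihood test with Benjamini-Hochberg adjustment gave every adjusted p unless another tool is named. Intervals are 95%. Comparisons of assays used the 8 libraries of a line, and those of lines the 8 libraries of an assay. Fisher's exact tests were run with Python 3.11.15 and scipy 1.17.1. The scripts were checked on simulated counts. Alternatives were DESeq2 1.42.0, upper-quartile scaling, no filter on low counts, a model with the replicate number as a block, 1 model over both assays of a line (the joint fit), and leaving out each library.

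The 8 genes, the lists and the tests were chosen with earlier results of these data known. In each list and experiment the text names the gene with the largest absolute change among those called, that had a mean of 50 or more reads in its higher group and 1 direction in all 4 pairs. MTOR and RHEB, and IRS1 in U251, were named in addition, after their values had been seen. A further U251 replicate named in the methods was not analysed here. Results for some other genes of the pathway are not reported here. Between 263 and 12919 reads lay behind each value of the 8 genes.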

Additional observations from a re-analysis of the deposited data

Results flagged for a closer look

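The response to miR-137 differed between the lines by an interaction test for 8 of the values reported above, each given as the log2 fold change in U343 minus that in U251 (edgeR, Benjamini-Hochberg adjusted p under 0.05). In RNASeq these were AKT1 (0.90), MAPKAP1 (1.03), INPP4B (1.37), EIF4EBP2 (0.76) and IRS1 (1.68). For AKT1, MAPKAP1, INPP4B and EIF4EBP2 the log2 fold change was negative in both lines and nearer to 0 in U343. IRS1 was at -0.86 in U251 against 0.82 in U343. In RIPSeq they were AKT2 (1.69), IRS1 (1.42) and PIK3AP1 (2.76). AKT2 was at -2.93 in U251 against -1.29 in U343, and PIK3AP1 at 2.00, which did not pass within U251, against 4.71. Over all genes 12.5% were called in this direction and 12.7% in the other in RNASeq, and 2.06% and 1.22% in RIPSeq. The RIPSeq call of AKT2 was lost in several alternatives, as given above. With the replicate block 1 gene of the lists was called higher in RIPSeq, in place of 4, and single alternatives for IRS1 and PIK3AP1 are not given here. The lines were prepared with different kits, and line and kit cannot be told apart. Groups of 2 libraries are too small for a check of single outlying libraries.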

How the results depend on the processing

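AKT2 was called lower in U251 RNASeq and U343 RIPSeq under all 9 alternatives. Of the values of single genes under alternatives that keep every library, 494 kept their side of the threshold and direction, 16 lost and 27 gained a call, and 3 reversed, while with a library left out 492 kept both, 40 lost and 66 gained a call, and 26 reversed. The cause was not tested. Leaving out a library leaves a group with a lone library, which is assumed to vary like the other groups. Within an experiment 3 libraries then remain in the fit, and more remain in the fits over 8 libraries. Upper-quartile scaling moved the median of all genes in U251 RNASeq from 0.02 to 0.16, and without a filter, over 18861 genes, it was 0.16.

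In U251 RNASeq, the 3 of the 8 genes called higher were 1 in the joint fit and the 3 called lower were 2, TSC1 being lost, other pathway genes called lower were 5 in the joint fit against 16, and those called higher were 4 with DESeq2, 4 without a filter and 2 in the joint fit against 8 (5 to 7 with a library left out). In U251 RIPSeq, the 8 genes gave 0 lower without a filter and 3 lower and 2 higher in the joint fit, against 1 and 0 (0 to 4 lower and 0 to 5 higher with a library left out). Other pathway genes there gave 2 lower and 2 higher with DESeq2 and with the replicate block, and 7 and 3 in the joint fit, against 0 and 0 (0 to 24 lower and 0 to 17 higher with a library left out). Over all genes the joint fit called 1213 lower and 1142 higher there, and the fits with a library left out 8 to 5366 lower and 133 to 6304 higher, against 37 and 133. In U343 RNASeq, the joint fit called 2 of the 8 genes lower against 1 (0 to 2 lower and 0 to 2 higher with a library left out). Other pathway genes there gave 11 lower in the joint fit against 7 (0 to 16), and 4 higher with DESeq2, 1 without a filter, 1 with the replicate block and 5 in the joint fit against 2 (0 to 9).

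For PABP-bound against total RNA in U251, 1 of the 8 genes was higher without a filter against 3, with 1 to 3 lower and 0 to 4 higher when a library was left out. In U343, leaving out a library gave 0 lower and 0 to 1 higher against 1 and 1. The interaction with assay gave 0 to 2 lower and 0 to 3 higher in U251, and 0 to 2 lower and 0 to 1 higher in U343, with a library left out, against 0. The interaction with line in RNASeq gave 1 lower with the replicate block against 0 (0 to 2) and 2 higher with DESeq2 against 1 (1 to 2). In RIPSeq it gave 2 higher with DESeq2 and 0 with the replicate block against 1 (0 to 3), and 0 to 4 lower. By the rule of the methods, an odds ratio over 1.5 called 2 of the 8 genes lower and 2 higher in U251 RNASeq and 2 higher in U251 RIPSeq. TMM-scaled totals called 2 lower in U251 RNASeq, AKT1 beside AKT2, and 0 higher in U251 RIPSeq. With a library left out the rule gave 0 to 2 higher in U251 RNASeq, and 1 to 2 lower and 1 to 2 higher in U251 RIPSeq. With a library left out, the change of the AKT2 share ranged from -18.4 to -14.9 points in U251 RNASeq, -30.4 to -22.4 in U251 RIPSeq, -15.8 to -12.6 in U343 RNASeq and -14.2 to -13.2 in U343 RIPSeq.

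The following log2 values changed sign. TSC1 was at 0.0097 in U251 RIPSeq without a filter, and with upper-quartile scaling the difference between lines was -0.022 for TSC2 in RNASeq and 0.042 for TSC1 in RIPSeq. With a library left out, U251 RIPSeq values ranged from -0.12 to 0.47 for PIK3CB, -0.17 to 0.15 for TSC1, -0.53 to 0.42 for GSK3B, -0.64 to 0.30 for PHLPP2 and -0.16 to 1.09 for TBC1D4. U343 RNASeq values ranged from -0.18 to 0.58 for PIK3CA, -0.14 to 0.24 for PIK3CB, -0.12 to 0.60 for PIK3R1 and -0.75 to 4.02 for PIK3AP1. U343 RIPSeq values ranged from -0.037 to 0.078 for AKT1 and -0.016 to 0.17 for PIK3CA. The difference between assays in U343 ranged from -0.066 to 0.465 for AKT2, -0.50 to 0.23 for PIK3CA, -0.062 to 0.094 for TSC1 and -0.076 to 0.034 for TSC2. The difference between lines ranged from -0.31 to 0.445 for PIK3CA and -0.025 to 0.26 for TSC2 in RNASeq, and from -0.18 to 0.067 for TSC1 in RIPSeq.

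The replicate numbers are shared by control and miR-137 libraries. Over genes, deviations of same-numbered libraries correlated at 0.04 in U251 RNASeq, -0.09 in U251 RIPSeq, 0.14 in U343 RNASeq and 0.41 in U343 RIPSeq. Same-numbered libraries thus deviated alike in U343 RIPSeq, where the replicate block called 4787 of all genes lower and 4858 higher, against 4130 and 4234. The labels do not say whether they were handled together, and there are only 2 pairs. The numbers are therefore not taken to pair the samples. The replicate block changed 1 count of the 8 genes in RNASeq and 1 in RIPSeq between the lines, as given above, and the fit within experiments kept the same counts of the 8 genes.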
